A study of Mus musculus with 8 samples.

Results

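The comparison followed cardiomyocytes of LncSync knockout (KO) mice from e13.5, a mid-gestation stage named for its day of embryonic development, to adulthood. It took the 4 libraries that the labels call KO e13.5 and KO adult, 2 at each age, out of 8 libraries in the series. All mice were C57BL/6, the labelled tissue was heart and the labelled cell type cardiomyocyte. LncSync, a long noncoding RNA by its name, was labelled as absent in the KO groups, and the 4 wild type (WT) libraries, again 2 at e13.5 and 2 adult, carried no mutation. The labels do not describe the allele, the age of the adults, the sex, how the cells were obtained or how many hearts went into a library. LncSync was not matched to an identifier and was not analysed here, so the genotype labels have no check from its own level. It is also not stated that replicates came from separate animals, and p-values measure only the spread between these libraries, which may be technical.

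The fetal heart works and grows at once: its cardiomyocytes beat while they divide, live largely on glucose and lactate, and share contractile proteins between atrium and ventricle. Around and after birth they leave the cell cycle, enlarge, line up their sarcomeres, build T-tubules that couple calcium channels to the sarcoplasmic reticulum, and turn to fatty acids burned in densely packed mitochondria. Many of these steps are switches between paralogs, in which the gene for a fetal, atrial or housekeeping form gives way to that for an adult or muscle form.

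RNA from each sample (200 ng) was amplified with Smart-seq2 and sequenced, and the deposited table gives expected counts per gene. Library totals were 16495084 and 18020211 counts for KO e13.5 and 19716681 and 17884518 for KO adults. Levels below are CPM, counts scaled to a common library size, and 3 counts, taken as the detection floor of a library, correspond to 0.119 to 0.199 CPM in the 4 KO libraries. The 2 KO adult libraries correlated at 0.957 in log2 CPM across genes and the 2 KO e13.5 libraries at 0.918, whereas KO libraries of different age correlated at 0.635 to 0.688. Mitochondrial genes took 3.21% and 4.25% of the counts at e13.5 and 28.8% and 27.4% in adults. Nuclear ribosomal RNA genes took 4.195% and 10.47% at e13.5, and 0.1266% and 0.0902% in adults. The part of this difference in RNA content in the changes with age was not tested. Haemoglobin transcripts took 15.5% of the first KO e13.5 library and 3.19% of the second, but at most 0.0136% of an adult library. All 10 cardiomyocyte markers checked, among them Tnnt2, Actn2 and Nkx2-5, were detected in each KO library, the lowest value being 4.69 CPM. Transcript length moved with age and with replicate. In KO adults the median log2 ratio of replicate 1 to replicate 2 ran from 0.42 for genes with up to 1 kb of exon to -0.42 for genes with over 10 kb. In KO e13.5 it ran from 0.51 for genes of 1 to 2 kb to -0.63 for genes with over 10 kb, and the median log2 change with age ran from -0.96 for genes with up to 1 kb to 0.92 for those with over 10 kb. The part of length in the changes below was not tested.

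A large share of the transcriptome differed between the KO adult and KO e13.5 libraries. Of 16623 genes tested, 3402 were higher in adults (20.5%) and 3481 were lower (20.9%). In either direction, 41.4% passed edgeR's quasi-likelihood test at a Benjamini-Hochberg adjusted p below 0.05. The shares of 20.5% and 20.9% are the background for each count of list members called below. Lack of overlap between the ages was common: 34.8% of all genes tested were higher in both KO adult libraries and 37.9% were lower in both. The median log2 fold change (adult minus e13.5) was 3.05 among the genes that rose, -2.99 among those that fell and -0.15 over all genes tested. Changes beyond a log2 value of 6 were seen in 314 of the genes that rose and 707 of those that fell. Without TMM scaling of the libraries, on total counts alone, the split became 2154 higher and 5005 lower, and the median of all genes moved to -0.73. The number of genes that rose was 2264 without KO adult replicate 2, and the number that fell was 1770 without KO adult replicate 1 and 1446 without KO adult replicate 2. Protein-coding genes divided evenly, with 21.9% higher and 21.1% lower, while of 1724 long noncoding genes 10.4% were higher and 20.5% lower. On the X chromosome 12% of 527 tested genes were higher and 31.7% lower.

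**Figure D1:**
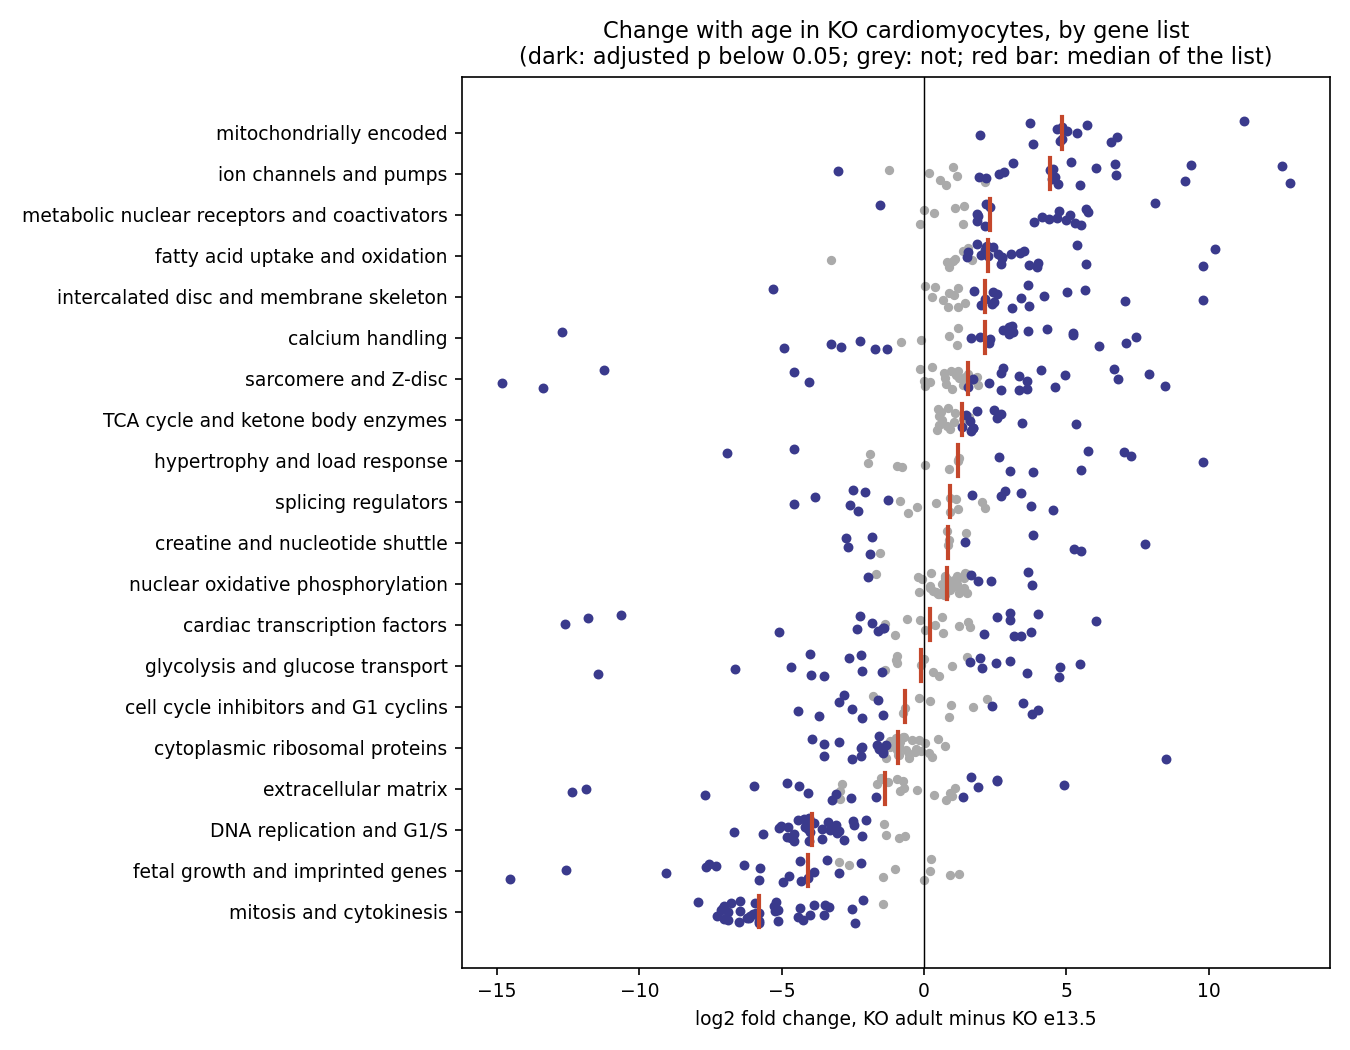
Change with age in KO cardiomyocytes for the tested members of 20 gene lists, as log2 fold change of KO adults over KO e13.5, 1 point per gene. Dark points passed an adjusted p below 0.05, grey points did not, and the red bar is the median of each list, from -5.80 for mitosis and cytokinesis to 4.87 for mitochondrially encoded genes.

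Genes of the contractile apparatus moved in both directions. Of 41 sarcomere and Z-disc genes, 17 rose, 5 fell and 19 did not pass the test, against 20.5% and 20.9% of all genes, with a list median of 1.56. Members of the M-band, which ties thick filaments together at the centre of the sarcomere, were among the clearest. Myom2, encoding myomesin 2, was at 5.56 and 11.3 CPM at e13.5 and at 724 and 1156 CPM in adults, a log2 change of 6.80 ± 0.70 (SE, n = 2 per age; adjusted p = 2.48e-04 by edgeR, as for all adjusted p-values here). Myom1 went from 69.6 and 82.5 to 1537 and 2119 CPM (log2 4.59 ± 0.72, adjusted p = 0.00125). Cmya5, whose product myospryn sits at the costamere, rose from 3.0 and 4.27 to 646 and 1126 CPM (log2 7.92 ± 0.85, adjusted p = 2.64e-04). The ages did not overlap for any of these, and the higher adult value was always in replicate 2. Ankrd23, a titin-binding ankyrin repeat gene, rose by a log2 value of 6.68 ± 0.50 (adjusted p = 1.39e-04), from 6.38 and 6.33 to 626 and 683 CPM.

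The 5 sarcomere genes that fell encode fetal, atrial or slow isoforms: Tnni1, Myl7, Myl4, Tpm2 and Myh7. The labelled tissue was heart. The part of atrial tissue in these falls, and in those of other atrial genes named below, was not tested. Slow skeletal troponin I, Tnni1, was at 3066 and 1183 CPM at e13.5 and at 0.066 CPM in each adult library. The adult values rest on 2 counts in all, which gives a count ratio of 28950 (95% counting interval 8013 to 239000). Myl7, the atrial regulatory light chain, went from 2599.8 and 1033 CPM to 0.198 and 0.133 CPM (log2 -13.37 ± 1.61, adjusted p = 3.90e-04). The other atrial light chain gene, Myl4, went from 3840.5 and 1557 to 1.38 and 0.862 CPM. For beta myosin heavy chain, Myh7, the libraries gave 1000.2 and 922 CPM at e13.5 and 26.8 and 54.2 CPM in adults (log2 -4.57 ± 0.98, adjusted p = 0.00558), a call that was lost without KO adult replicate 1 (adjusted p = 0.0604). Members that stayed without a call include some of the most abundant ones: Actc1, the cardiac alpha actin gene, had 18963 and 5869 CPM at e13.5 and 12029 and 10373 CPM in adults (log2 -0.15 ± 0.66). Most sarcomere genes were higher in KO e13.5 replicate 1 than in replicate 2 (32 of 41, median ratio 2.09, against 0.924 over all genes tested). The number of sarcomere genes that rose was 10 without KO adult replicate 2. Sync, which encodes syncoilin, an intermediate filament protein of the Z-disc, was at 0.625 and 3.01 CPM at e13.5 and 16.3 and 21.4 CPM in adults (mm10 chr4:129287617-129308559, log2 3.35 ± 0.69, adjusted p = 0.00473), and in WT its log2 change was 3.48.

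Serum response factor binds the CArG box, and its gene Srf rose from 13.501 and 8.07 to 166 and 125 CPM (log2 3.76 ± 0.49, adjusted p = 5.56e-04). A CArG box was found within the 250 bases before a RefSeq start in 8 of 46 promoters of sarcomere genes (17.4%; 34 of 41 genes had a promoter in the table), against 1.47% of 32851 promoters. Of the promoters shown, Myom1 belonged to a gene that rose, Myl7 to a gene that fell and Acta1 to a gene without a call, so the box stood before genes of each kind. Each sequence is the 120 bases before the start on the gene's own strand (RefSeq, GRCm38.p6), with the CArG box in capitals. The Myom1 window is chr17:71019437-71019556 on the plus strand, the Myl7 window chr11:5898783-5898902 on the minus strand and the Acta1 window chr8:123894776-123894895 on the minus strand.
Myom1: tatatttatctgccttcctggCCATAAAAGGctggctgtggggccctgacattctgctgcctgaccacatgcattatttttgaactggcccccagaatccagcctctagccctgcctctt
Myl7: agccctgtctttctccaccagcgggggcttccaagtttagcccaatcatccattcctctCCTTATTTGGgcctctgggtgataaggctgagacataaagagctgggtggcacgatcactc
Acta1: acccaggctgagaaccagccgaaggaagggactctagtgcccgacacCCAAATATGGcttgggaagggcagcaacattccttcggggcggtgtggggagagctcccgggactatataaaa
The CArG box was searched as CCWWWWWWGG and the MEF2 site as YTAWWWWTAR, on both strands. Here W stands for A or T, Y for C or T and R for A or G. MEF2 sites were present in 8.7% of the sarcomere promoters and 2.92% of all promoters. A match describes the letters of the window and says nothing about binding.

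Genes of excitation and calcium cycling were mostly higher in KO adults. Of 27 ion channel and pump genes 19 rose and 1 fell (median 4.44), and of 28 calcium handling genes 16 rose and 7 fell (median 2.14). Atp2a2, the SERCA2 pump that refills the sarcoplasmic reticulum, was at 122 and 81.5 CPM at e13.5 and at 16770.0 and 18960.0 CPM in adults (log2 7.46 ± 0.69, adjusted p = 1.79e-04). Its release channel, Ryr2, went from 14.9 and 19.3 to 1380.3 and 3299.7 CPM (log2 7.09 ± 0.78, adjusted p = 2.78e-04), and Jph2, which holds T-tubule and reticulum membranes together, from 14.4 and 11.2 to 1017 and 812 CPM (log2 6.16 ± 0.52, adjusted p = 1.64e-04). The L-type channel gene Cacna1c was at 15.9 and 16.4 and then 213 and 434 CPM (log2 4.32 ± 0.68, adjusted p = 0.00128). The adult libraries lay above both embryonic libraries for all 4 genes. Of the channel genes, Kcnip2, the auxiliary subunit of the transient outward potassium current, rose from 0.250 and 0.356 to 222 and 146 CPM (log2 9.18 ± 0.61, adjusted p = 1.38e-04). Casq1, the skeletal muscle calsequestrin, fell from 334 and 94.2 to 5.53 and 8.75 CPM (log2 -4.90 ± 0.79, adjusted p = 0.00144). Sarcolipin, Sln, an inhibitor of the calcium pump typical of atria, was at 58.4 and 29.1 CPM at e13.5 and at 0 in both adult libraries, at least 441.7-fold lower, with the adult group set at 3 counts, the floor used for every group at 0. The number of calcium handling genes that fell was 4 without KO e13.5 replicate 2, 3 without KO adult replicate 1 and 2 without KO adult replicate 2.

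Cell junction and membrane skeleton genes followed, with 16 of 27 higher, 1 lower and a median of 2.15. Dsp, encoding desmoplakin of the desmosome, was at 25.4 and 28.6 CPM at e13.5 and 1056 and 1641 CPM in adults (log2 5.64 ± 0.69, adjusted p = 4.27e-04). Xirp2, an actin-binding gene of the intercalated disc, went from 0.813 and 0.633 to 299 and 995 CPM (log2 9.80 ± 0.85, adjusted p = 1.64e-04). Itga7, the laminin-binding integrin subunit of muscle, rose by a log2 value of 7.07 ± 0.95 (adjusted p = 6.24e-04). The member that fell was Gja5, connexin 40 of atrial and conduction tissue, from 120.1 and 46.5 to 2.64 and 1.59 CPM (log2 -5.30 ± 0.67, adjusted p = 4.84e-04). The median of these 27 genes was 1.656 without KO adult replicate 2 and 2.432 without KO adult replicate 1.

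**Figure D2:**
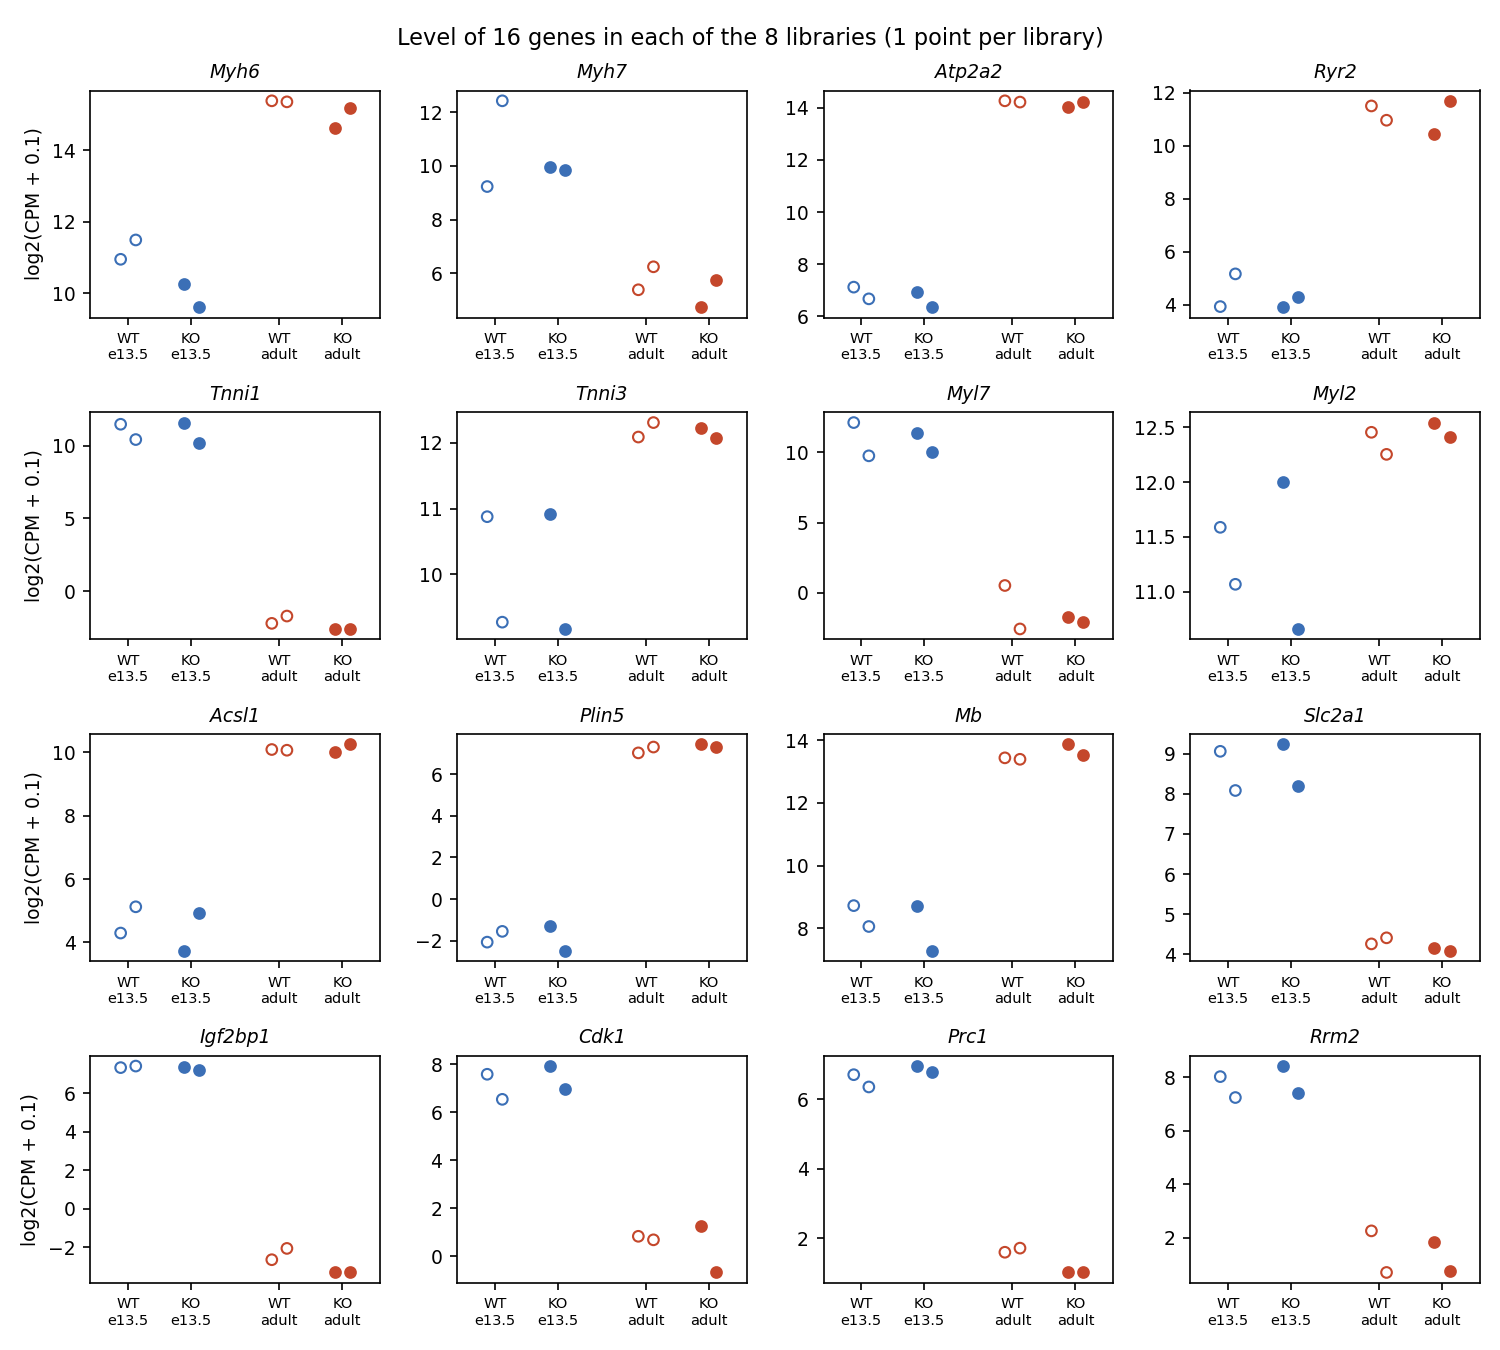
Level of 16 genes in each of the 8 libraries as log2(CPM + 0.1), 1 point per library, with KO filled, WT open, e13.5 in blue and adult in red. Atp2a2, Ryr2, Acsl1 and Plin5 sit higher in both KO adult libraries than in both KO e13.5 libraries, and Tnni1, Myl7, Igf2bp1 and Cdk1 sit lower.

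Genes of fatty acid use were higher in KO adults. Of 31 genes of fatty acid uptake and oxidation, 23 rose and none fell in KO adults (median 2.24). Uptake was represented by Slc27a1, a fatty acid transporter, at 13.1 and 21.2 CPM at e13.5 and 175 and 214 CPM in adults (log2 3.50 ± 0.47, adjusted p = 6.22e-04). Acsl1, which activates long chain fatty acids with coenzyme A, rose from 13.3 and 30.3 to 1028 and 1219 CPM (log2 5.69 ± 0.64, adjusted p = 2.97e-04). Plin5, which coats lipid droplets next to mitochondria, went from 0.313 and 0.079 to 173 and 158 CPM (log2 9.80 ± 0.73, adjusted p = 1.39e-04). Ucp3, a mitochondrial carrier linked to fatty acid use, had 2 counts over both e13.5 libraries and 74.1 and 63.6 CPM in adults, a count ratio of 1420 (95% counting interval 392.7 to 11740). Mlycd, which breaks down malonyl-CoA and so relieves the block on fatty acid entry, rose by a log2 value of 5.39 ± 0.49 (adjusted p = 1.73e-04). All 4 KO libraries separated by age for each of these genes.

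Of 25 genes of the TCA cycle, pyruvate dehydrogenase and ketone body use, 12 rose and none fell (median 1.35). Pdk4, the kinase that shuts pyruvate dehydrogenase, had the largest change of the list, from 7.0 and 30.5 to 639 and 902 CPM (log2 5.35 ± 0.77, adjusted p = 8.36e-04). Ogdh, a subunit of the oxoglutarate dehydrogenase complex, rose from 206 and 282 to 2739 and 2542 CPM. Oxct1 and Bdh1, both needed to burn ketone bodies, rose by log2 values of 2.58 ± 0.52 and 2.44 ± 0.49 (adjusted p = 0.00404 and 0.00434). The count of genes that rose was 6 without KO adult replicate 2.

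The protein-coding transcripts of the mitochondrial genome rose, 13 of 13 with a median of 4.87. Of all 15 genes tested on the mitochondrial chromosome, 13 were called higher and 0 lower, so the rise did not extend to every mitochondrial transcript. mt-Nd2, a complex I subunit, was at 223 and 158 CPM at e13.5 and 19337 and 17053 CPM in adults (log2 6.58 ± 0.64, adjusted p = 2.24e-04). mt-Nd4 went from 1256 and 959 to 28930.0 and 27616 CPM and mt-Nd5 from 870.4 and 936 to 24828 and 27824 CPM. Near-identical nuclear copies such as Gm28437 share reads with these genes, so the levels are uncertain by that share. Of 44 nuclear oxidative phosphorylation genes, 5 rose and 1 fell (median 0.83), a result that rested on single libraries. The count that rose was 14 without KO e13.5 replicate 1 (median 1.72) and 2 without KO e13.5 replicate 2 (median 0.34), 8 without either WT e13.5 library, 2 without KO adult replicate 1 and 3 without KO adult replicate 2. Among the 5 were muscle forms of cytochrome oxidase subunits: Cox7a1, at 32.3 and 12.2 and then 349 and 204 CPM (log2 3.64 ± 0.71, adjusted p = 0.00362), and Cox8b, at 16.2 and 8.03 and then 219 and 117 CPM (log2 3.80 ± 0.62, adjusted p = 0.00148). In the creatine and oxygen shuttle, Ckmt2, mitochondrial creatine kinase, rose from 23.4 and 2.53 to 2800.5 and 2802 CPM (log2 7.76 ± 1.15, adjusted p = 9.99e-04). Slc6a8, which imports creatine, went from 5.63 and 4.27 to 198 and 181 CPM, and myoglobin, Mb, from 419 and 156 to 14902 and 11657 CPM (log2 5.53 ± 0.72, adjusted p = 5.45e-04). Gamt, the enzyme of the last step of creatine synthesis, went from 23.5 and 15.9 to 4.02 and 2.19 CPM (log2 -2.66 ± 0.55, adjusted p = 0.00462), and lost its call without KO adult replicate 2 (adjusted p = 0.0531). Of the 14 genes of this shuttle 5 rose and 4 fell, and the number that fell was 2 without KO e13.5 replicate 1 and 0 without KO adult replicate 2.

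Glycolysis genes split, 9 higher and 10 lower of 29, with a median of -0.11 that turned to 0.14 without KO adult replicate 2. Slc2a1, the GLUT1 transporter, fell from 601 and 295 to 17.9 and 17.0 CPM (log2 -4.68 ± 0.58, adjusted p = 4.44e-04), and Slc16a3, which exports lactate, from 271 and 187 to 2.70 and 1.86 CPM (log2 -6.65 ± 0.54, adjusted p = 1.62e-04). Aldoc, the brain-type aldolase, was at 22.7 and 14 CPM at e13.5 and at 0 in both adult libraries, at least 185.3-fold lower. Slc2a4, the insulin-responsive GLUT4, rose from 44.3 and 25.1 to 437 and 409 CPM (log2 3.61 ± 0.54, adjusted p = 0.00101). Fbp2, the muscle fructose bisphosphatase that opposes glycolysis, was at 0 at e13.5 and at 25.4 and 22.7 CPM in adults, at least 330.9-fold higher. The number of glycolysis genes that fell was 6 without KO adult replicate 1 and 5 without KO adult replicate 2.

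In a list of metabolic nuclear receptors, coactivators and related regulators, 18 of 25 rose and 1, Nrf1, fell (median 2.32). Esrra, estrogen-related receptor alpha, was at 7.31 and 4.95 CPM at e13.5 and 275 and 154 CPM in adults (log2 5.13 ± 0.54, adjusted p = 2.61e-04). Perm1, a muscle regulator that acts with it, went from 0.625 and 2.29 to 405 and 425 CPM (log2 8.11 ± 0.80, adjusted p = 2.24e-04). Ppard, a fatty acid sensor, rose by a log2 value of 5.52 ± 0.58 (adjusted p = 2.52e-04). Klf15 and Klf9, both known glucocorticoid-responsive factors, rose by 5.75 ± 0.63 and 5.69 ± 0.51. Nrf1 was not called without WT adult replicate 2 or without either KO adult library.

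Cardiac transcription factors showed no common direction, with 9 higher and 10 lower of 30 and a median of 0.21, which was -0.52 on total counts and -0.45 without KO e13.5 replicate 1. Tead1, a Hippo pathway effector, rose from 10.4 and 8.63 to 111 and 198 CPM (log2 4.02 ± 0.54, adjusted p = 6.39e-04), and Mef2d from 17.6 and 15.2 to 191 and 159.5 CPM (log2 3.42 ± 0.50, adjusted p = 9.01e-04). Hand1, a factor of the early left ventricle and outflow region, was at 33.6 and 13.1 CPM at e13.5 and at 0 in both adult libraries, at least 235.7-fold lower. The count of factors that fell was 5 without KO adult replicate 1 and 4 without KO adult replicate 2.

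Cell cycle genes fell together. Of 38 mitosis and cytokinesis genes, 37 fell and none rose (median -5.80), and of 34 DNA replication and G1/S genes 30 fell and none rose (median -3.93). The member of the mitosis list without a call was Ncapd2, a condensin subunit, at 23.9 and 96.0 CPM and then 24.6 and 19.7 CPM. Cdk1, the mitotic kinase, was at 243 and 126 CPM at e13.5 and 2.31 and 0.530 CPM in adults (log2 -7.02 ± 0.83, adjusted p = 3.72e-04). Prc1, which bundles the central spindle, fell from 124 and 111 to 1.91 and 1.92 CPM (log2 -5.93 ± 0.48, adjusted p = 1.62e-04), and Cenpe, a kinetochore motor, from 53.9 and 53.3 to 0.527 and 0.663 CPM (log2 -6.48 ± 0.53, adjusted p = 1.62e-04). In S phase, Rrm2, the regulated subunit of ribonucleotide reductase, went from 344 and 172 to 3.49 and 1.59 CPM (log2 -6.66 ± 0.80, adjusted p = 3.98e-04). Mcm6, a subunit of the replicative helicase, kept more of its level, from 233 and 196 to 16.7 and 7.09 CPM (log2 -4.17 ± 0.54, adjusted p = 5.24e-04). Adult values were below both e13.5 values in each of these named genes that fell. In bulk RNA, fewer cells of a kind and less RNA per cell cannot be told apart, and dividing cells of any type contribute to these levels.

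G1 regulators were mixed, with 4 higher and 8 lower of 21. Cdk4, the G1 kinase, fell from 628 and 423 to 53.5 and 29.0 CPM (log2 -3.67 ± 0.54, adjusted p = 9.59e-04) and its partner Ccnd3 from 555 and 445 to 84.5 and 42.0 CPM (log2 -2.98 ± 0.52, adjusted p = 0.00204). Rb1, the retinoblastoma gene that holds E2F factors in check, rose from 1.13 and 1.19 to 13.9 and 23.3 CPM (log2 4.0 ± 0.64, adjusted p = 0.00141). The CDK inhibitor gene Cdkn2d fell by 2.80 ± 0.54 on the log2 scale (adjusted p = 0.00340), so inhibitors were not all on the rising side. The number that fell was 5 without KO adult replicate 1 and 4 without KO adult replicate 2, and the median of -0.67 turned to 0.04 without KO e13.5 replicate 2.

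Promoters of the genes that fell in the cell cycle lists are shown because the group moved together and carries known elements. The searched elements were the CHR (TTTGAA) and the CCAAT box (CCAAT), both textbook elements of G2/M promoters, and an E2F site (TTTNGCGC), each on both strands of the 250 bases before the start. The CHR was in 13 of 33 mitosis promoters (39.4%; 31 of 38 genes had a promoter in the table) and in 16% of all 32851 promoters. The CCAAT box was in 26 of them (78.8%) and in 33.8% of all. In the other lists searched, the share of promoters ran from 21.7% to 60.9% for the CCAAT box and from 0% to 22.2% for the CHR. Replication promoters had 60% and 17.1%, and cardiac transcription factor promoters 60.9% and 17.4%. The E2F site was in 5 of 35 replication promoters (14.3%, from 27 of 34 genes) and in 1.13% of all. In the other lists its share ran from 0% to 10%, with 9.09% in mitosis promoters. The sequences below are the 120 bases before the RefSeq start (GRCm38.p6), on the gene's strand, with CHR and CCAAT matches of either strand in capitals for Cdk1 and Cdc20 and E2F matches for Mcm6. Cdc20 activates the anaphase-promoting complex and fell from 282 and 154 to 3.49 and 1.33 CPM (log2 -6.50 ± 0.70, adjusted p = 2.64e-04). All 3 windows lie on the minus strand, at chr10:69352913-69353032 for Cdk1, chr4:118437344-118437463 for Cdc20 and chr1:128359706-128359825 for Mcm6.
Cdk1: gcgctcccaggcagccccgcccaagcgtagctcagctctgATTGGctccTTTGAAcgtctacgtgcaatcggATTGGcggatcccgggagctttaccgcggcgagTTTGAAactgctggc
Cdc20: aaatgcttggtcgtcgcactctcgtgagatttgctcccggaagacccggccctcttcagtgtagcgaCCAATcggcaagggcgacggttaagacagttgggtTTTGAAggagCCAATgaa
Mcm6: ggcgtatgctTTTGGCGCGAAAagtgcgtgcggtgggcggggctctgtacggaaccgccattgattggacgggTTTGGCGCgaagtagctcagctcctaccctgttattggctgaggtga
The match closest to the start ended 9 bases before it in Cdk1, a CHR, and 3 bases before it in Cdc20, a CCAAT box.

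Fetal growth and imprinted genes fell, 18 of 27 with none higher and a median of -4.08. Igf2bp1, an RNA-binding protein of fetal tissue that stabilises growth transcripts, was at 165 and 144 CPM at e13.5 and at 0 in both adult libraries, at least 1558-fold lower. Igf2bp3 went from 71.4 and 76.2 to 0.066 and 0.199 CPM (log2 -9.06 ± 0.64, adjusted p = 1.38e-04). The imprinted gene Mest went from 2717 and 1314 to 15.7 and 4.11 CPM (log2 -7.66 ± 0.87, adjusted p = 3.05e-04). Gpc3, a glypican that restrains growth factor signalling, fell from 549.7 and 603 to 4.88 and 2.32 CPM (log2 -7.32 ± 0.65, adjusted p = 1.70e-04). Ribosomal protein genes had 14 of 40 lower, 1 higher and a median of -0.92. Rpl27 fell from 143 and 106 to 8.43 and 8.02 CPM and Rpl10 from 452 and 543 to 43.7 and 42.6 CPM, while the gene that rose was Rpl3l, the striated muscle paralog of Rpl3, from 1.56 and 0.158 to 334 and 256 CPM (log2 8.49 ± 0.96, adjusted p = 3.05e-04). Ribosomal protein genes have many processed copies that can share reads, so their values are uncertain. The count that fell was 8 without either WT adult library or KO e13.5 replicate 1, 7 without KO adult replicate 1, 4 without KO adult replicate 2 and 25 on total counts.

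Of 19 hypertrophy and load genes 8 rose and 2 fell, against 20.5% and 20.9% of all genes. Nppa, atrial natriuretic peptide, which the fetal ventricle makes and the failing ventricle makes again, fell from 6709 and 789 to 17.8 and 43.7 CPM (log2 -6.93 ± 1.21, adjusted p = 0.00214), with the e13.5 libraries far apart. The adrenergic receptors rose: Adrb1 from 0.188 and 0.119 to 27.0 and 20.4 CPM (log2 7.26 ± 0.63, adjusted p = 1.64e-04), Adra1b by a log2 value of 5.77 ± 0.63 and Adra1a by 7.03 ± 0.89. Without KO adult replicate 1 the count that fell was 1. Of 23 splicing regulators 6 rose and 7 fell, shares near those of all genes. Among them were Rbm20, which sets titin splicing, from 18.0 and 24.7 to 175 and 284 CPM (log2 3.42 ± 0.56, adjusted p = 0.00158), Rbfox1 from 1.19 and 1.42 to 29.1 and 31.9 CPM (log2 4.53 ± 0.51, adjusted p = 2.97e-04) and Srsf3 from 439 and 437 to 62.2 and 93.6 CPM (log2 -2.49 ± 0.44, adjusted p = 0.00216).

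Paralog pairs were compared within each library. The pairs, and the form set as adult in each, were chosen with earlier results of these data known. Counts of shifts toward that form are therefore a description and no independent support. Levels were divided by exon length, and the share of the pair's signal from the form typical of adult heart or muscle was taken per library. Of 25 pairs, the KO libraries shifted to that form in 23, without overlap between the ages in 22. The 22 include Myl2 over Myl7 and Myl3 over Myl4, pairs with an atrial form. The part of atrial tissue in their shifts was not tested. Single genes, over all tested, did not overlap in 34.8% (higher in adults) and 37.9% (lower). In 11 pairs the other form was the more abundant at e13.5 and the adult form in adults. For troponin I, Tnni3 made up 52.4% and 46.0% of the pair at e13.5 and 100% in both adult libraries. Myh6, alpha myosin heavy chain, already made up 61.1% and 52.0% at e13.5 and 99.9% in adults, and rose itself from 1224 and 778 to 25158 and 37267 CPM (log2 4.96 ± 0.66, adjusted p = 6.12e-04). Slc2a4 went from 6.92% and 7.92% of its pair with Slc2a1 to 96.1% and 96.0%. Hk2 went from 12% and 9.92% of the hexokinase pair to 71.1% and 80.9%, and Rpl3l from 1.85% and 0.199% to 96.1% and 96.9%. In WT adults Rpl3l made up 80.84% and 83.73%. Rpl3 was at 51.44 and 54.36 CPM per kilobase in KO e13.5, then 8.321 and 4.927 in KO adults. In WT it was at 319.7 and 192.4, then 39.75 and 29.67. Cox7a1 reached 65.6% and 64.3% and Cox8b 70.1% and 71.0%, from 13.3% and 10.6% and from 4.70% and 3.45%.

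The shift came from different sides in different pairs. The adult form was called higher in 15 pairs and the other form lower in 13. Both held in 6, of which Myh6 with Myh7, Slc2a4 with Slc2a1 and Rpl3l with Rpl3 are examples. In 3 pairs the other form was itself called higher in adults: Cacna1g, Jph1 and Esrrb. Within the 6, the calls of Myh7, Ckb, Cox8a and Casq2 were each lost in some fit that left out a single library. The same held for Ldha, Cpt1b, Cox6a2 and Cacna1g in other pairs. In the troponin I pair the adult form, Tnni3, had no call (log2 1.86 ± 0.72, adjusted p = 0.0615) and Tnni1 fell. For hexokinases the reverse was true, with Hk1 at a log2 change of -0.01 ± 0.42 and Hk2 at 4.73 ± 0.75 (adjusted p = 0.00136). The pair of sarcomeric actins remained dominated by Actc1: Acta1 made up 2.22% and 2.4% at e13.5 and 5.84% and 5.53% in KO adults, with shifts in the log2 ratio of 1.35 in KO and -0.24 in WT. Cyclin D went the other way, as Ccnd3 made up 76.2% and 65.6% of its pair with Ccnd1 at e13.5 and 24.4% and 30.4% in adults. Neither the carnitine palmitoyltransferase pair nor the estrogen-related receptor pair separated the ages.

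**Figure D3:**
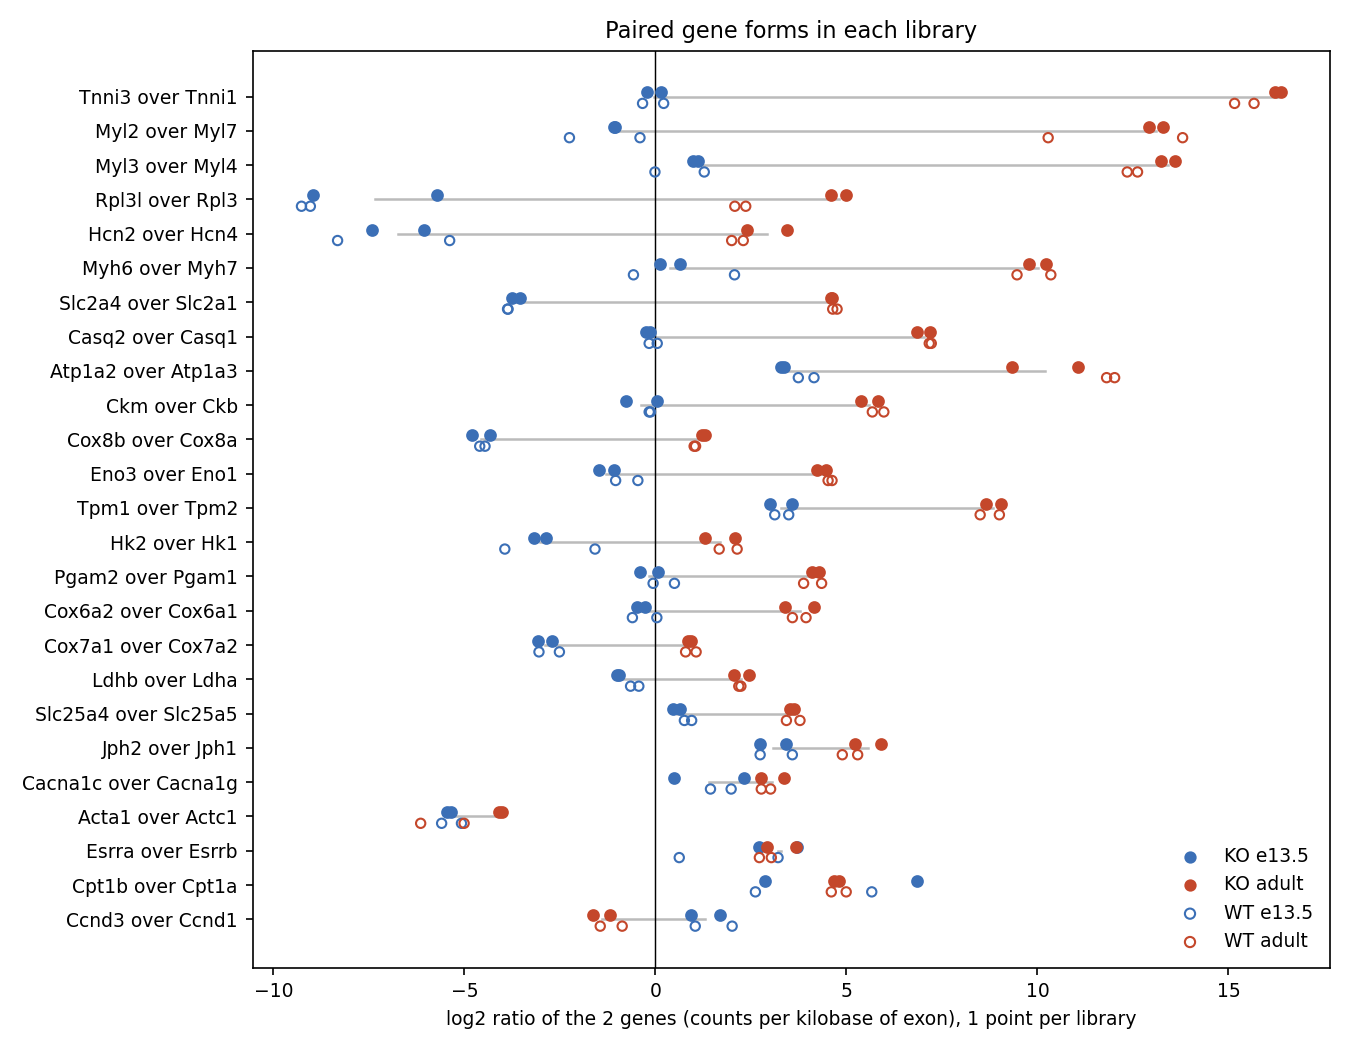
Log2 ratio of the form typical of adult heart or muscle to the other form for 25 gene pairs, from counts per kilobase of exon, 1 point per library (KO filled, WT open, e13.5 blue, adult red; grey lines join the KO means). In 22 pairs both KO adult points lie to the right of both KO e13.5 points, and in the cyclin D pair they lie to the left.

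The largest single changes were chosen among called genes with at least 20 CPM at the higher age and no overlap. Mylk4, a myosin light chain kinase family gene, was at 0 in both KO e13.5 libraries and at 104 and 160.2 CPM in adults, at least 1818-fold higher. Hcn2, a pacemaker channel gene, and Scn4b, a sodium channel beta subunit gene, were also at 0 at e13.5 and at least 667.7-fold and 543.1-fold higher. Eef1a2, the translation elongation factor form of adult muscle and neurons, went from 0.750 and 0.950 to 1528 and 998 CPM (log2 10.52 ± 0.69, adjusted p = 1.38e-04). Pm20d2 was at least 424.3-fold higher, and Asb15, a muscle ubiquitin ligase adaptor, had a count ratio of 1443 (95% counting interval 398.9 to 11920) against 2 counts at e13.5. The falls were led by embryonic globins. Hbb-y went from 55177 and 6697 CPM to 0 in both adult libraries, at least 312100-fold lower, Hba-x from 6248 and 646 CPM and Hbb-bh1 from 280.3 and 31.5 CPM, also to 0. Hsd3b6, a steroid dehydrogenase gene, was at 417 and 30.7 CPM and then at 0 (at least 2260-fold lower), Mybphl, an atrial sarcomere gene, at 98.6 and 30.6 CPM and then at 0, and Cdh3, P-cadherin, at 34.7 and 61.5 CPM and then at 0. Chga, chromogranin A, rested on KO e13.5 replicate 2 (0.813 and 135 CPM, then 0) and lost its call without either KO adult library (adjusted p = 0.0576 and 0.0605).

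Markers of other heart cells moved with age as well. Erythroid markers fell in 13 of 14, with summed levels of 160300 and 22870 CPM at e13.5 and 287.7 and 119.2 CPM in adults; Gata1 and Slc4a1 were at 0 in both adult libraries. Macrophage and leukocyte markers rose in 8 of 18 and fell in 1, with sums of 125.9 and 123.7 CPM and then 781.1 and 446 CPM, and Cd163 went from 0 to 23.0 and 35.1 CPM (at least 399.4-fold higher). Without KO adult replicate 1, 4 of these markers rose, and without KO e13.5 replicate 1, 5. Endothelial markers rose in 5 of 17, near the 20.5% of all genes, with none lower (1381 and 1337, then 3907 and 2174 CPM), for example Vwf from 7.69 and 5.50 to 225 and 69.5 CPM. The count that rose was 3 without KO adult replicate 1, the split was 7 higher and 1 lower without KO e13.5 replicate 2, and on total counts it was 4 higher and 3 lower. Epicardial markers fell in 6 of 12 (343.8 and 248.4, then 47.7 and 21.41 CPM), led by the keratins Krt8, Krt18 and Krt19, and in 3 without KO adult replicate 2. Smooth muscle and pericyte markers were mixed, 6 higher and 3 lower of 14: Cnn1, a smooth muscle gene that fetal cardiomyocytes also express, fell from 472 and 226 to 0.132 and 0.928 CPM, and the pericyte genes Higd1b and Vtn were at 0 at e13.5 and at least 69.47-fold and 481.3-fold higher. Neural markers fell in 5 of 9 (sums of 20.13 and 182.8 CPM, then 11.86 and 10.07 CPM), and in 1 without either KO adult library. Without KO e13.5 replicate 2, 3 fell and 1 rose, and the median moved from -3.48 to -1.56.

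For connective tissue genes the embryonic libraries differed. Of 34 extracellular matrix genes 6 rose and 11 fell, against 20.5% and 20.9% of all genes, so the share that rose was near that of all genes. The median of -1.37 turned to 0.26 without KO e13.5 replicate 2. Eln, encoding elastin, was at 274 and 1759.6 CPM at e13.5 and 37.6 and 34.7 CPM in adults (log2 -4.82 ± 0.86, adjusted p = 0.00244), and Postn, periostin, at 123 and 694 and then 23.3 and 16.2 CPM (log2 -4.37 ± 0.82, adjusted p = 0.00304). Hapln1, which links hyaluronan in the fetal cardiac jelly, went from 12.3 and 31.8 to 0.198 and 0 CPM, a count ratio of 244.4 (95% counting interval 83.4 to 1187). The number of matrix genes that rose was 1 without KO e13.5 replicate 1 or KO adult replicate 1 and 2 without KO adult replicate 2, and the number that fell was 7 without KO adult replicate 2. Fibroblast markers had 3 higher and 3 lower of 15, shares near the 20.5% and 20.9% of all genes. Their summed levels were 1079 and 4180 CPM at e13.5 and 2250 and 1394 CPM in adults, so that the ages overlapped. The median of -0.06 was 0.14 without KO e13.5 replicate 1 and 1.25 without KO e13.5 replicate 2. Skeletal muscle markers fell in 4 of 8, and in 1 without KO e13.5 replicate 1 or either KO adult library, while Pax7, Myf5 and Myh4 were at 0 in all KO libraries. Their sum followed Ckm, which cardiomyocytes also express, at 305 and 93.3 CPM at e13.5 and 3238 and 2486 CPM in adults. Liver markers had 1 of 9 higher, Ahsg, whose call was lost without any 1 of the 4 KO libraries and under each other scaling tried in edgeR. The count that rose was 3 without either WT e13.5 library or WT adult replicate 2, 4 without WT adult replicate 1 and 6 without a filter on low counts. Of 10 adipocyte markers 3 could be tested and 2 rose, 1 of them without KO e13.5 replicate 2 or KO adult replicate 1. Adipoq, Plin1 and Lep were at 0 in both adult libraries. The part of the cell mixture in the changes of the other lists was not tested. Sex is not labelled. Xist, a gene that silences an X chromosome in females, was at 28 and 35.4 CPM at e13.5 and at 0 and 0.464 CPM in adults, and the Y-linked gene Ddx3y was at 5.81 and 26 and then 30 and 79.0 CPM (adjusted p = 0.0779), so both e13.5 libraries held both transcripts. The part of sex in the changes, those of X-linked genes included, was not tested.

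**Figure D4:**
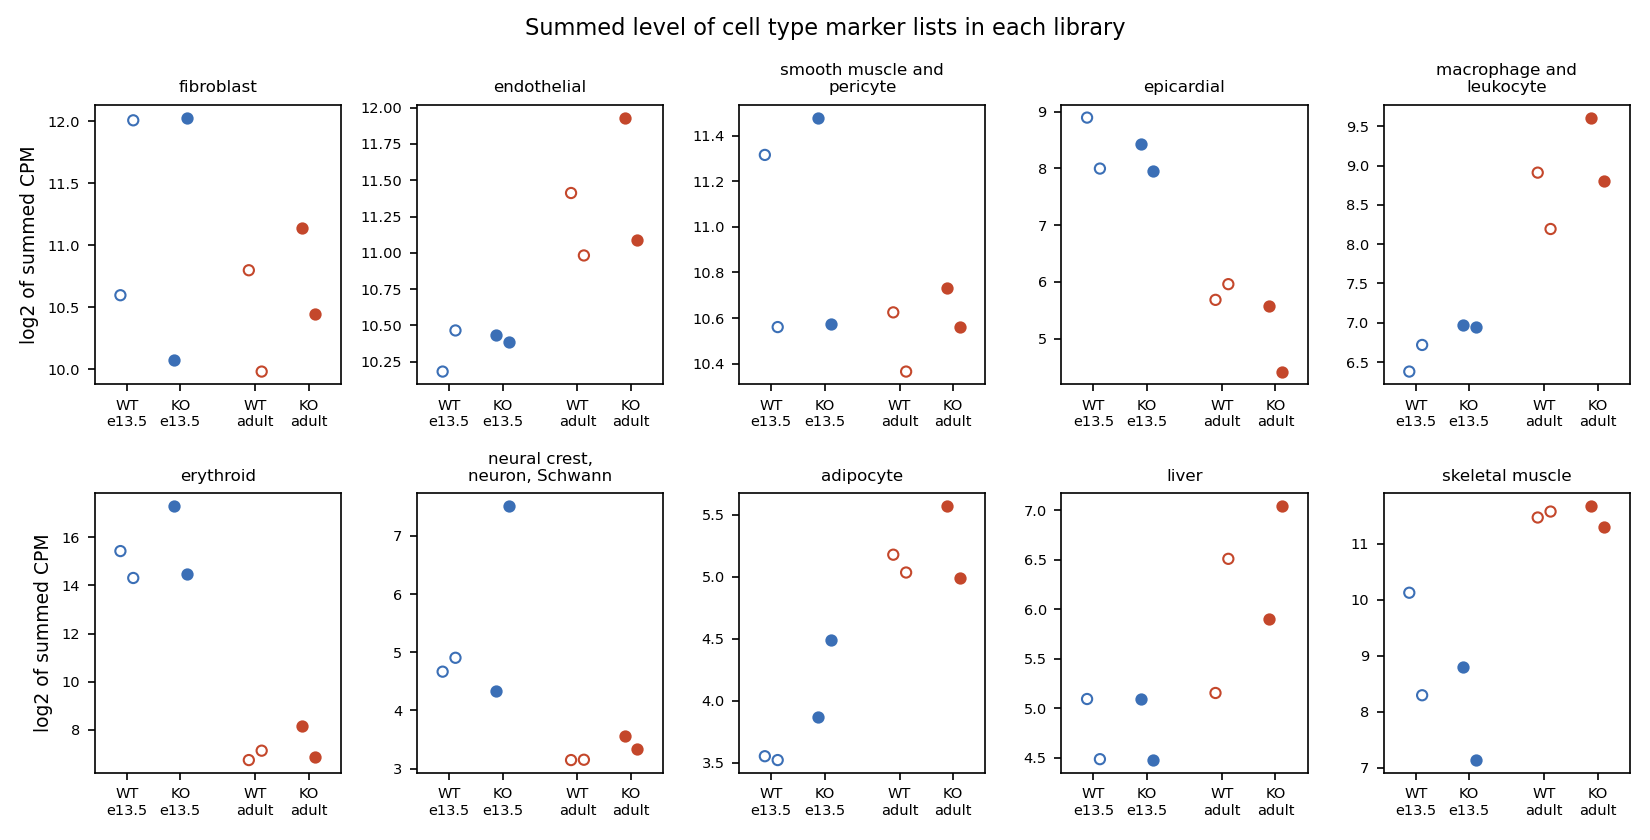
Summed CPM, as log2, of 10 lists of cell type markers in each of the 8 libraries, 1 point per library (KO filled, WT open, e13.5 blue, adult red). Erythroid and epicardial sums are lower in both KO adult libraries than in both KO e13.5 libraries, macrophage and endothelial sums are higher, and fibroblast sums overlap.

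Whether the change with age differed in the knockout was tested as the interaction of age and genotype over all 8 libraries. No gene of 16623 passed edgeR's test at an adjusted p below 0.05 (0%), 265 had an unadjusted p below 0.05 (1.59%), and DESeq2 called 7. In WT, 2954 genes rose (17.8%) and 3509 fell (21.1%), 38.9% in either direction. Genes called higher in both genotypes numbered 2678, or 78.7% of those in KO and 90.7% of those in WT, and genes called lower in both numbered 2892, or 83.1% and 82.4%. Of 1310 genes called in KO and not in WT, 1293 had a WT estimate of the same sign. Across tested genes, which are not independent replicates, the 2 sets of log2 changes had a Pearson r of 0.92. A call in 1 genotype alone does not show a difference between them, and the lack of interaction calls does not show that they matured alike. With 2 libraries per group the median biological coefficient of variation between replicates was 0.428.

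The 5 genes with the smallest interaction p were Lrat, Pttg1, Mocs1, Gm4316 and 6330403K07Rik, and all missed the threshold in the edgeR fit of all 8 libraries. Of these 5, DESeq2 called Pttg1 (adjusted p = 2.28e-08), Lrat (1.27e-04), Mocs1 (2.08e-04) and Gm4316 (0.00320), and edgeR without a filter on low counts called all 5. Pttg1 was also called by edgeR without WT e13.5 replicate 1 (adjusted p = 0.0442) and without KO e13.5 replicate 2 (adjusted p = 0.0423). Pttg1, securin, which holds sister chromatids together until anaphase (mm10 chr11:43420250-43426251), was at 176 and 73.1 CPM in KO e13.5 and 2.11 and 1.39 CPM in KO adults, but at 66.9 and 27.5 CPM in WT e13.5 and 47.6 and 57.0 CPM in WT adults. The log2 change in KO minus that in WT was -6.29 ± 0.88 (adjusted p = 0.273). Both WT adult libraries lay above both KO adult libraries, and the WT ages overlapped. Lrat, lecithin retinol acyltransferase, which stores vitamin A as esters (mm10 chr3:82892579-82903973), was at 1.25 and 3.56 CPM in KO e13.5 and 0 and 0.066 CPM in KO adults, a single count, and at 0.507 and 0.379 and then 6.99 and 8.13 CPM in WT (adjusted p for the interaction = 0.273). Mocs1, of molybdenum cofactor synthesis, was at 0.500 and 0.633 CPM in KO e13.5 and at 20 and 16.2 CPM in KO adults, against 11.7 and 11.2 and then 17.8 and 15.3 CPM in WT (adjusted p = 0.273). In this gene the KO e13.5 libraries stood apart from the other 6. Gm4316, an intergenic noncoding RNA, moved in opposite directions, at 25.2 and 25.6 and then 12.7 and 10.2 CPM in KO and 12 and 12.6 and then 45.1 and 60.3 CPM in WT (adjusted p for the interaction = 0.836). Its KO call (log2 -1.15 ± 0.40, adjusted p = 0.0454) was lost without either WT adult library or any 1 of the 4 KO libraries, with adjusted p up to 0.210.

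**Figure D5:**
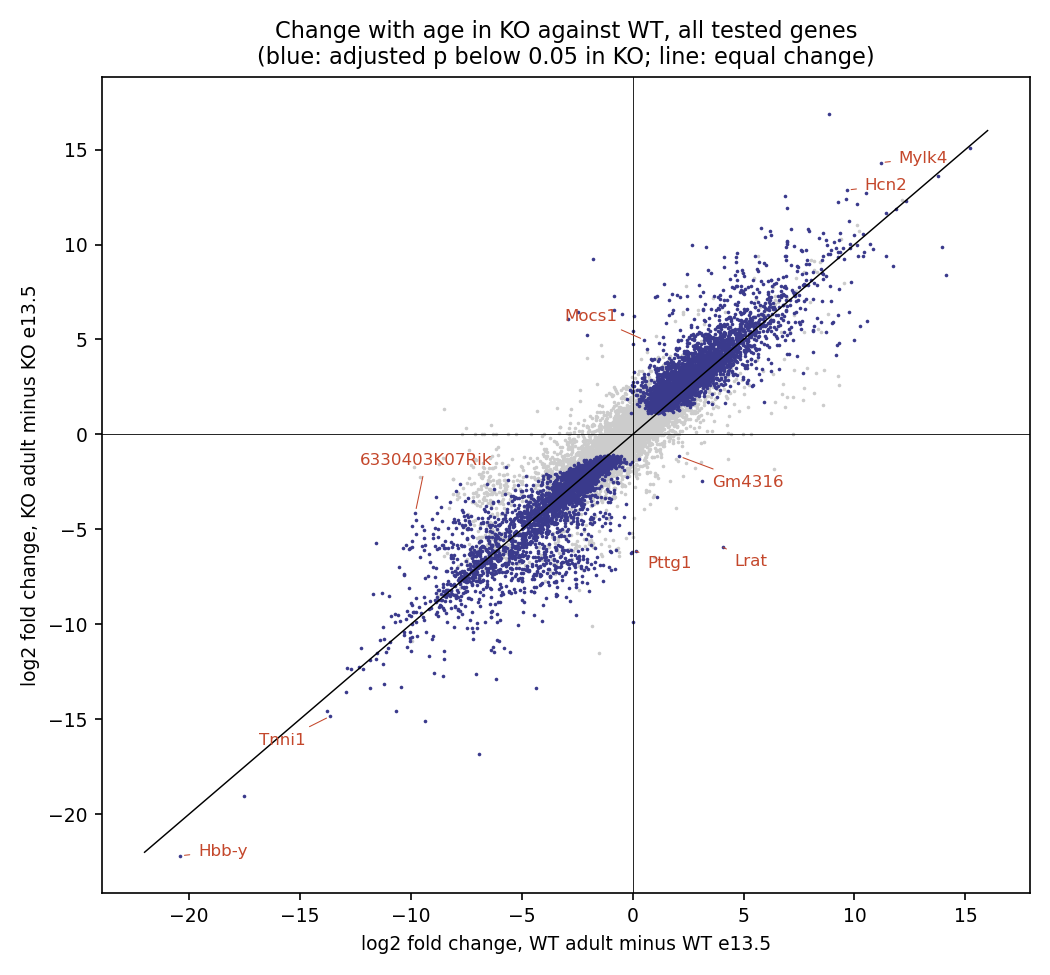
Log2 change with age in KO (vertical) against WT (horizontal) for the 16623 tested genes, 1 point per gene, blue where the KO change passed an adjusted p below 0.05. The line marks equal change; the points follow it with r = 0.92, and Lrat, Pttg1, Mocs1 and Gm4316, which lie off it, missed the interaction threshold in the edgeR fit and passed it in DESeq2.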

How the data were processed

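Total RNA (200 ng per library) was amplified with Smart-seq2, per the labels' protocols. The deposited table holds expected counts per gene, which the authors made with RSEM on the mm10 genome, per the submitters' processing notes. Version, aligner, annotation and strand setting: not given in the sources used here. The values are whole numbers with differing totals and were taken as unscaled counts. Of 51826 identifiers, 51633 matched GENCODE vM21 (GRCm38), which gave symbols, positions and exon lengths.

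Genes kept by filterByExpr (16623) were tested in R 4.3.3 with edgeR 4.0.16 (TMM, glmQLFit, glmQLFTest, two-sided) and limma 3.58.1, with 4 group means over all 8 libraries and 4 residual degrees of freedom. A gene was called at p below 0.05 after Benjamini-Hochberg adjustment across the 16623 genes. CPM used TMM-scaled sizes, and ± is the standard error of the log2 fold change. A group at 0 was set to 3 counts for folds, and counting intervals (95%) cover counting error only. DESeq2 1.42.0, other scalings and filters, a replicate block and leaving out each library were alternatives. Python 3.11.15 and matplotlib 3.10.9 served for promoters and plots. Scripts were tested on simulated counts in which far fewer genes changed between the KO ages than were called here. Of 96 genes changed by a log2 value of 2 in either direction, 3 were called. Of 94 changed by 3, 27 were called, and false calls numbered 2.

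Named genes were the 10 largest rises and falls among called genes without overlap and with at least 20 CPM at the higher age, up to 5 called members of smallest p per list, the 25 pairs, the 5 interaction genes of smallest p, Sync and sex-linked genes. Genes named outside this rule (among them Cdc20, Mcm6, Myom1, Sln, Ncapd2 and Nrf1) were chosen after their values were seen. The members, lists and pairs, with the form set as adult in each pair, were chosen with earlier results of these data known. Equal replicate numbers were not taken as pairs. Promoters came from the RefSeq table for GRCm38.p6.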

Additional observations from a re-analysis of the deposited data

How the results depend on the processing

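Of 174 named genes called in KO, 145 kept the call in each alternative run, apart from the fit on the 4 KO libraries alone and the fold threshold, which were not counted, and no gene's direction reversed while called. Genes higher in KO adults numbered 2154 on total counts, and 2264 to 3975 when 1 library was left out at a time. Genes lower in KO adults numbered 2254 against a log2 threshold of 1, and 1446 to 3823 when 1 library was left out. For WT, the genes higher numbered 1869 on total counts, 4563 with a replicate block at e13.5 alone and 1734 to 3613 without 1 library, and the genes lower 2238 with the fold threshold and 1157 to 3638 without 1 library. Interaction calls numbered 30 without a filter on low counts, 7 with DESeq2, 1 (Pttg1) with the block at e13.5 alone and 0 to 5 when 1 library was left out. With a replicate block on all libraries, KO calls were 4003 higher and 4078 lower and interaction calls 0, and with a block at e13.5 alone KO calls were 5059 higher and 4729 lower. Of 44 nuclear oxidative phosphorylation genes, those blocks called 16 and 31 higher and 2 lower in each. Nothing in the labels says that the shared numbers pair the samples. Deviations of same-numbered libraries correlated at 0.13 between the ages in KO and -0.03 in WT, and between the genotypes at 0.55 at e13.5 and 0.31 in adults. Fewer libraries give fewer residual degrees of freedom in the fits without 1 library, and otherwise the cause was not tested. Many of the 174 named genes were picked for large changes or small p in the main fit. The 145 that kept the call therefore do not stand for all called genes. On total counts, 2154 of the 3402 genes higher in KO adults and 3430 of the 3481 lower kept their calls. The interaction could not be fitted on the 4 KO libraries alone. At these depths a gene with no count in a library may have had up to 0.119 to 0.199 CPM in KO.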
